A study of Mus musculus with 8 samples.

Results

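The genes described here are members of the cyclic AMP (cAMP), protein kinase A (PKA) and CREB signalling chain, in hippocampi of aged mice with an amyloid precursor protein transgene. They were given as a list of 10 gene symbols: Creb1, Crebbp, Crtc1, Prkaca, Prkacb, Adcy1, Adcy8, Pde4b, Pde4d and Camk4. Of the 10, 9 were matched to a probe set by gene symbol, each to a single one, and all 9 passed the filter on dim genes, out of 14628 genes tested and 19505 measured. Pde4d was not analysed here. The question was which of these genes differ in RNA level between mice of impaired and of intact memory.

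The impaired group held 4 mice and the intact group 4 mice, each giving 1 Affymetrix array of hippocampal RNA. All 8 were B6.Cg-Tg(APPswe)E1-2Dbo/J animals of 18 to 20 months and were killed after the Morris water maze, a test of memory for the place of a hidden platform. The mice with intact memory thus carried the transgene too, and no mouse without it was measured. The labels do not give the score that divided the mice, their sex or the promoter that drives the transgene. Levels are log2 values from robust multi-array averaging (RMA), and a log2 difference of 1 stands for a ratio of 2.

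Cyclic AMP is made by adenylyl cyclases, broken down by phosphodiesterases, and read mainly by PKA, whose catalytic subunits are released from their regulatory subunits when cAMP binds. In neurons PKA and the calcium-dependent kinase CaMKIV phosphorylate the transcription factor CREB, which then recruits the acetyltransferase CBP, while coactivators of the CRTC family bind CREB in parallel. In the hippocampus this chain is known for its part in the lasting form of synaptic potentiation and in the formation of long-term memory. Much of its regulation acts on proteins, through phosphorylation and movement into the nucleus, which an RNA measurement does not read.

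The 8 arrays had medians of 7.75 to 7.79 over the genes tested and correlations across genes of 0.9795 to 0.9889 between pairs of arrays. RMA includes quantile normalization, which makes medians alike, so they cannot show whether the raw signals were alike. Hippocampal markers that passed the filter on dim genes were set against the negative-control probe sets. Of these, 7 of 7 dentate granule cell markers, 7 of 7 CA1 markers and 5 of 6 CA3 markers lay above 6.30, their 75th percentile. Above 7.92, their 95th percentile, lay 5 of 7, 6 of 7 and 1 of 6. The dentate marker Tdo2 was measured but left out by the filter. Markers of tissue outside the hippocampus varied between mice. The mean deviation of 12 choroid plexus markers reached its lowest values in mouse 3 of each group, -0.92 (impaired) and -0.97 (intact), while the other 6 mice spanned -0.37 to 0.92. That of 12 thalamus markers was -1.45 in intact mouse 3 and between -0.23 and 0.48 in the other 7. That of 8 striatum markers was 0.57 in intact mouse 2, 0.20 in intact mouse 4 and -0.28 to 0.054 in the other 6. Some striatum markers are also in the pathway lists below, and no fit used the striatum score. Some counts and differences changed without both mice 3 or with the plexus and thalamus scores in the fit. Part of those changes are given below, and a count without such a value is not thereby stable.

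None of the 9 genes differed between impaired and intact memory by more than the spread between mice. All 9 had overlapping groups, 0 passed an adjusted p of 0.05 and 0 had an unadjusted p under 0.05 (limma). Over all 14628 genes, 0% passed the adjusted threshold, 4.68% had an unadjusted p under 0.05 and 2.58% had groups that did not overlap, so that none among 9 genes is near the background. The differences ran from -0.14 for Camk4 to 0.061 for Adcy8, with a median of -0.014 against a median of -0.0083 over all genes tested. Values were lower in the impaired group for 5 of 9 genes, against 52.9% of all genes, and higher for 4 of 9, against 47.1%. Without both mice 3, as with the plexus score in the fit, 6 of 9 were lower (51.9% and 52.9% of all genes). With both the plexus and thalamus scores 7 of 9 were lower (53.4%), and after a further quantile normalization 4 of 9 (49.6%). With 1 mouse left out, 4 to 6 of the 9 were lower. The 95% intervals of the 9 differences lay between -0.42 and 0.28, which is the size of change these 8 arrays leave possible. Leaving out 1 mouse moved each of the 9 differences by more than 1.5 times or changed its sign, without a call.

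Adcy1 encodes an adenylyl cyclase that calcium and calmodulin stimulate, and so couples neuronal activity to cAMP. Its level was 9.83, 9.85, 10.24 and 9.77 in impaired mice 1 to 4, against 9.88, 9.76, 10.23 and 9.87 in intact mice 1 to 4. Mouse 3 of each group stood above the other 6 mice, whose values lay within a narrow band, and the group ranges were nearly the same. The means were 9.92 ± 0.21 in the impaired group and 9.94 ± 0.21 in the intact group (SD, n = 4 each), with a difference of -0.014 (standard error 0.13, limma, adjusted p = 0.996). The within-group SD of Adcy1 exceeded that of 92.6% of the 1000 genes closest to it in mean level. The mice with high Adcy1 were also those with the lowest choroid plexus scores. Across the 8 mice Adcy1 and the plexus score correlated at r = -0.817 (exact permutation p = 0.0201, adjusted p = 0.189 over 45 relations) with a rank correlation of -0.476 (exact permutation p = 0.243). Without the 2 mice farthest from the median score, r was 0.067, so that the relation rests on those mice. With the plexus score in the fit the difference of Adcy1 was -0.135 (unadjusted p = 0.190, limma) and did not pass. That p was the smallest among the listed genes in that fit. Over the 20 other settings the difference of Adcy1 ran from that value to 0.086 without intact mouse 3. It was above 0 in 6 of them.

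Adcy8, the other calcium-stimulated adenylyl cyclase, stood at 8.44, 8.40, 8.53 and 8.33 in impaired mice 1 to 4, against 8.22, 8.57, 8.22 and 8.44 in intact mice 1 to 4. Intact mice 1 and 3 had the lowest values and intact mouse 2 the highest, so that the intact group enclosed the impaired one. The means were 8.42 ± 0.085 in the impaired group and 8.36 ± 0.17 in the intact group (SD, n = 4 each). The difference of 0.061 had a 95% interval of -0.16 to 0.28 (limma, adjusted p = 0.981), and without both mice 3 it was -0.020. Pde4b, a phosphodiesterase specific for cAMP, works against the cyclases. Its level was 9.41, 9.42, 9.59 and 9.56 in impaired mice 1 to 4, against 9.61, 9.78, 9.55 and 9.46 in intact mice 1 to 4. Impaired mice 1 and 2 lay below every intact mouse, while impaired mice 3 and 4 lay among the intact values. The means were 9.49 ± 0.094 in the impaired group and 9.60 ± 0.14 in the intact group (SD, n = 4 each), a difference of -0.11 (standard error 0.092, limma, adjusted p = 0.961) with an interval of -0.31 to 0.097. It had the smallest unadjusted p of the 9 genes, 0.276.

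Prkaca and Prkacb encode the alpha and beta catalytic subunits of PKA. Prkaca stood at 10.82, 11.08, 10.92 and 10.89 in impaired mice 1 to 4, against 10.90, 10.85, 10.91 and 10.94 in intact mice 1 to 4. The 4 intact values fell inside the range of the impaired ones. The means were 10.93 ± 0.11 in the impaired group and 10.90 ± 0.036 in the intact group (SD, n = 4 each). Whether the spread of the groups differs was not tested. Prkaca had the narrowest interval of the 9 differences, -0.15 to 0.20 (difference 0.026, limma, adjusted p = 0.991). Prkacb stood at 10.90, 11.06, 10.82 and 10.86 in impaired mice 1 to 4, against 10.87, 10.97, 10.75 and 10.97 in intact mice 1 to 4. The highest value was in impaired mouse 2, as for Prkaca, and the lowest in intact mouse 3. The means were 10.91 ± 0.11 in the impaired group and 10.89 ± 0.10 in the intact group (SD, n = 4 each), with a difference of 0.021 and an interval of -0.17 to 0.22 (limma, adjusted p = 0.993). Without impaired mouse 2 the differences were -0.023 for Prkaca and -0.030 for Prkacb.

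Camk4 encodes CaMKIV, a nuclear kinase that calcium and calmodulin activate and that phosphorylates CREB. Its level was 7.95, 8.20, 7.73 and 7.75 in impaired mice 1 to 4, against 8.15, 7.82, 8.20 and 8.02 in intact mice 1 to 4. Impaired mice 1, 3 and 4 lay below intact mice 1, 3 and 4, whereas impaired mouse 2 was among the highest of the 8 and intact mouse 2 among the lowest. The means were 7.91 ± 0.22 in the impaired group and 8.05 ± 0.17 in the intact group (SD, n = 4 each), a ratio of impaired to intact of 0.906. The difference of -0.14 was the largest of the 9 in size and did not pass (standard error 0.12, limma, adjusted p = 0.961). It was -0.24 without impaired mouse 2 and -0.032 without both mice 3, and its adjusted p was at least 0.901 in every setting tried. The mean of 7.98 is close to 7.92, the 95th percentile of the negative controls.

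Creb1 encodes CREB itself. Its level was 8.10, 8.06, 8.14 and 8.19 in impaired mice 1 to 4, against 8.38, 8.01, 8.34 and 8.03 in intact mice 1 to 4. The impaired mice lay close together, and the intact mice split into a pair above and a pair below all 4 of them. The means were 8.13 ± 0.056 in the impaired group and 8.19 ± 0.20 in the intact group (SD, n = 4 each), with a difference of -0.066 and an interval of -0.29 to 0.16 (limma, adjusted p = 0.977). Crtc1, a CREB coactivator that enters the nucleus when calcineurin removes its phosphates, showed a similar arrangement. Its level was 11.45, 11.36, 11.45 and 11.48 in impaired mice 1 to 4, against 11.47, 11.32, 11.61 and 11.30 in intact mice 1 to 4. The highest value and both of the lowest were in intact mice. Its means were 11.43 ± 0.050 in the impaired group and 11.42 ± 0.14 in the intact group (SD, n = 4 each), with a difference of 0.012 (standard error 0.089, limma, adjusted p = 0.995).

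Crebbp encodes CBP, the histone acetyltransferase that phosphorylated CREB recruits. It stood at 10.72, 10.84, 10.72 and 11.01 in impaired mice 1 to 4, against 10.95, 10.77, 10.96 and 10.96 in intact mice 1 to 4. Intact mice 1, 3 and 4 lay close together, intact mouse 2 lay apart below them, and the highest value of all was in impaired mouse 4. The means were 10.82 ± 0.14 in the impaired group and 10.91 ± 0.095 in the intact group (SD, n = 4 each), a difference of -0.089 (standard error 0.092, limma, adjusted p = 0.961). Without impaired mouse 4 it was -0.15, with an adjusted p of 0.793, the lowest that any setting gave for the 9 genes. In such bulk tissue, fewer cells of a type and less RNA per cell cannot be told apart.

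**Figure D1:**
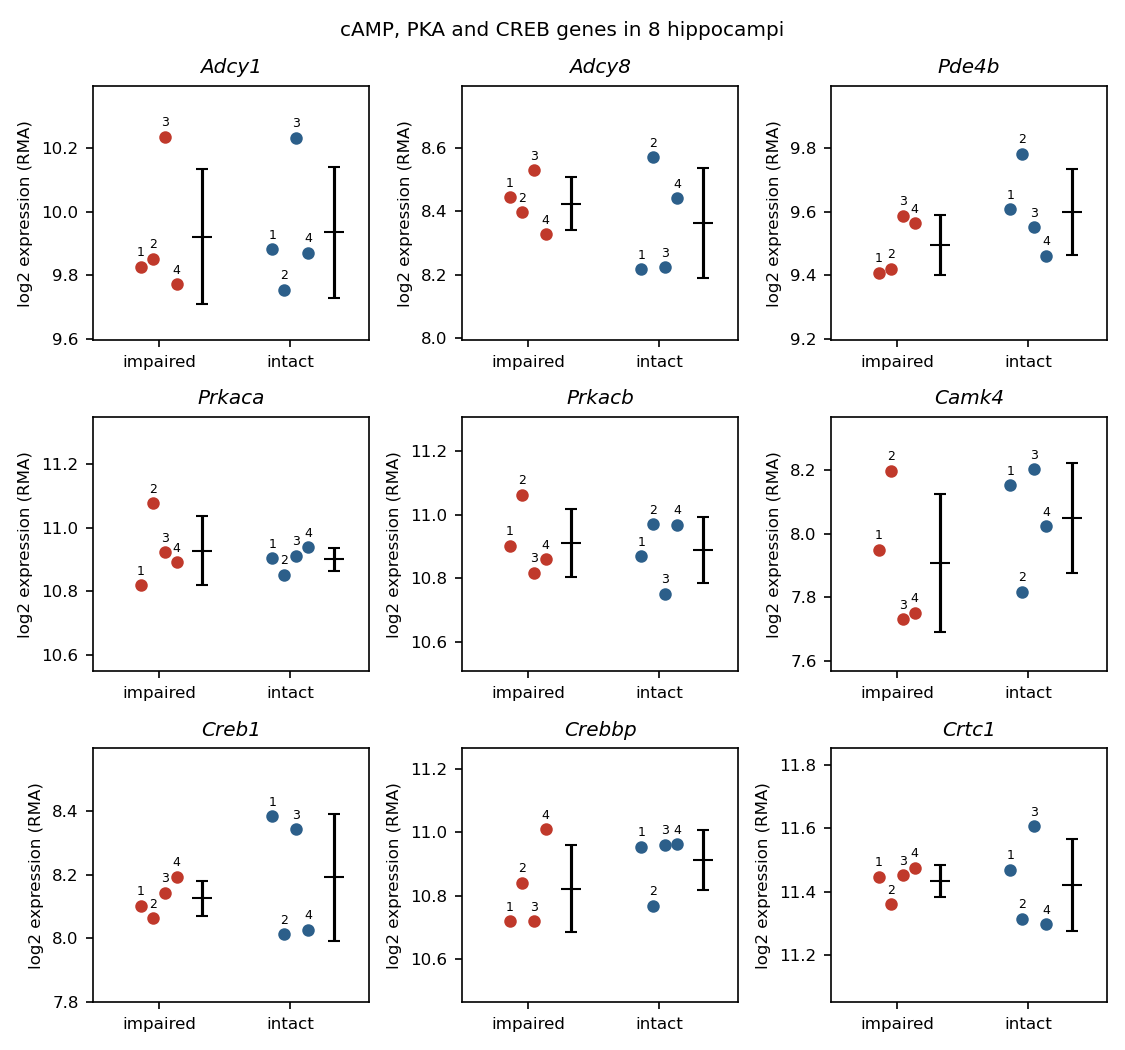
Log2 expression (RMA) of the 9 genes in each mouse, with impaired mice at the left and intact mice at the right of each panel, numbered by mouse. Black bars give the group mean and SD (n = 4), every panel spans 0.8 log2 units, and the groups overlap in all 9 panels.

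Pairs of the 9 genes were compared over the 8 mice, and those with the smallest p are given first, as a description. Creb1 and Crtc1 varied together, at r = 0.837 and a rank correlation of 0.905 over the 8 mice (exact permutation p = 0.00662 and 0.00456, adjusted p = 0.0976 and 0.164 over 36 pairs). Without the 2 mice farthest from the median of Creb1, r was 0.945. Adcy8 ran against Creb1, with r = -0.867 and a rank correlation of -0.786 (exact permutation p = 0.00766 and 0.0279, adjusted p = 0.0976 and 0.331), and r was -0.516 without the 2 farthest mice. Prkacb ran against Crtc1, with r = -0.857 and a rank correlation of -0.833 (exact permutation p = 0.00814 and 0.0154, adjusted p = 0.0976 and 0.277), and r was -0.793 without the 2 mice farthest from the median of Crtc1. None of the 36 pairs passed an adjusted p of 0.05. The pair of catalytic subunits, Prkaca and Prkacb, had r = 0.466 and a rank correlation of 0.119 (exact permutation p = 0.246 and 0.793, adjusted p = 0.714 and 0.921). Without the 2 farthest mice that r was -0.283.

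None of 45 relations between the 9 genes and scores of tissue and cell markers passed an adjusted p of 0.05, and those with the largest r are given as a description. Against the score of the 12 thalamus markers, Crtc1 had r = -0.876 and a rank correlation of -0.810 (exact permutation p = 0.00476 and 0.0218, adjusted p = 0.1295 and 0.245 over 45 relations), and r = -0.694 without the 2 farthest mice. Creb1 had r = -0.764 and a rank correlation of -0.857 (exact permutation p = 0.0186 and 0.0107, adjusted p = 0.189 and 0.231), and Adcy8 had r = 0.751 and a rank correlation of 0.786 (exact permutation p = 0.0210 and 0.0279, adjusted p = 0.189 and 0.251). Prkacb, also drawn in the figure, had r = 0.712 and a rank correlation of 0.571 (exact permutation p = 0.0454 and 0.151, adjusted p = 0.234 and 0.567). Without the 2 farthest mice r was -0.579 for Creb1, 0.529 for Adcy8 and 0.388 for Prkacb. Against the score of 7 CA1 pyramidal neuron markers, Crtc1 had r = 0.873 and a rank correlation of 0.833 (exact permutation p = 0.00575 and 0.0154, adjusted p = 0.1295 and 0.231), and r = 0.632 without the 2 farthest mice. All 12 thalamus markers lay above the 75th percentile of the negative controls on average, and their summed level, as log2, spanned 13.035 to 13.709 in impaired mice and 11.739 to 13.775 in intact mice. The part of tissue composition in the levels of these genes was not tested.

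**Figure D2:**
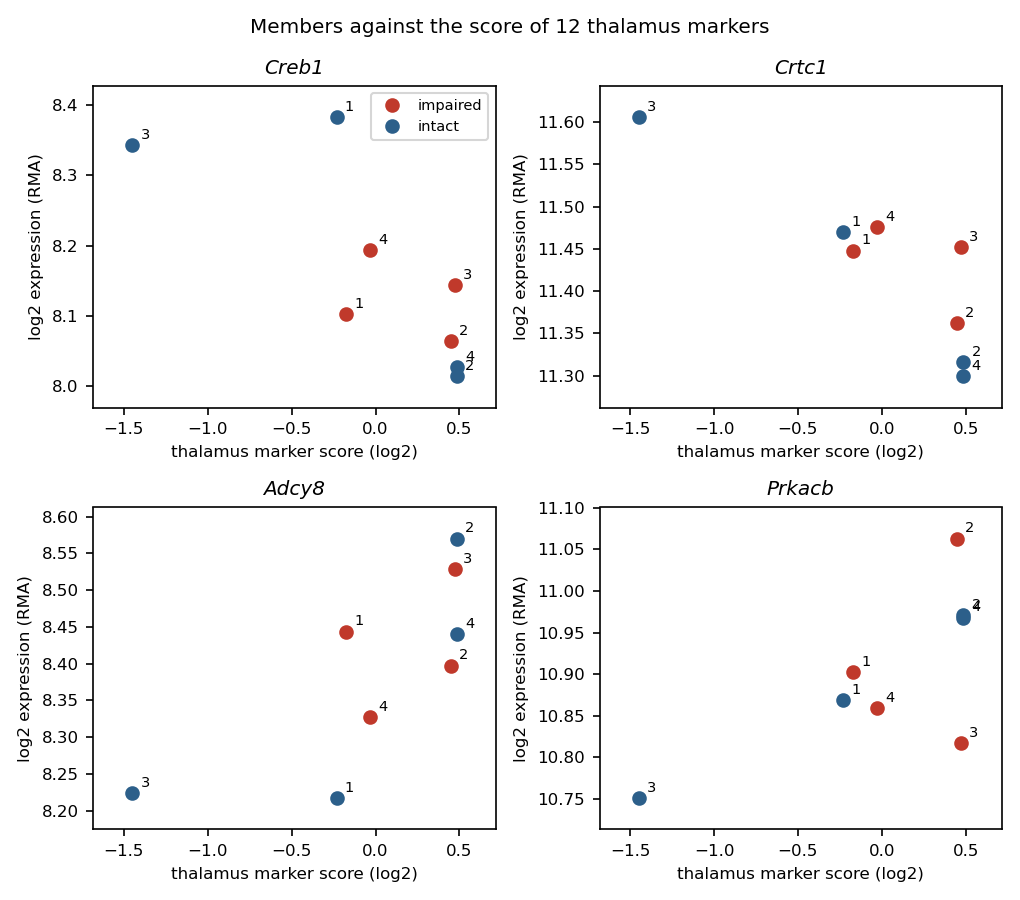
Log2 expression (RMA) of Creb1, Crtc1, Adcy8 and Prkacb against the mean log2 deviation of 12 thalamus markers, 1 numbered point per mouse, impaired in red and intact in blue. Intact mouse 3, with a score of -1.45, has the highest Crtc1 (11.61) and the lowest Prkacb (10.75), and intact mice 2 and 4, at 0.48, have the lowest Crtc1 and Creb1.

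The genes whose pattern over the 8 mice was most like each of these were found by Pearson's r among 11994 genes brighter than the 75th percentile of the negative controls, as a description of these arrays. They were chosen as the highest of that many, so that no test is given. Closest to Creb1 were Emx2, a homeobox transcription factor of the developing and adult forebrain (r = 0.979, rank correlation 0.952), and Ica1 (r = 0.969, rank correlation 0.976). Closest to Crtc1 were Rtn4r, which encodes the Nogo receptor (r = 0.992, rank correlation 0.929), and Cacng8, an auxiliary subunit of AMPA receptors (r = 0.982, rank correlation 0.786). Tenm1, a teneurin, was closest to Prkacb (r = 0.992, rank correlation 1.000), ahead of Tmx3 (r = 0.956), and Ankrd34c and Tmem132c were closest to Adcy8 (r = 0.965 and 0.961). For these 4 genes r stayed at 0.906 or more without the 2 mice farthest from the median. Crebbp was most like Nsun3 (r = 0.982) and Fry (r = 0.972), Prkaca most like Zfp275 (r = 0.969) and Myh10 (r = 0.957), Pde4b most like Ly6e (r = 0.976) and Epha10 (r = 0.973), and Camk4 most like 2610002M06Rik (r = 0.974) and Ppp2r2d (r = 0.967). For Adcy1 the closest were Cldn22 and Dcaf17 (r = 0.933 and 0.930), but without the 2 farthest mice r was 0.034 and 0.409. For Prkaca and Myh10 that r was 0.700.

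The rest of the chain was read from 12 lists of pathway genes, 145 genes beside the 10, of which 129 were measured and 121 tested. Of the 121, 0 passed an adjusted p of 0.05 (limma), and 3 higher and 3 lower genes had an unadjusted p under 0.05, against 2.17% and 2.52% of all genes. Groups did not overlap for 2 of the 121, the clock gene Per1 and the anchoring protein gene Akap6, against 2.58% of all genes. Values were higher in the impaired group for 61 and lower for 60, with a median of 0.0036. Counted in this way, the pathway as a whole lay close to the background. Of 32 other genes named below by a rule on p or on the promoter, 21 moved by more than 1.5 times or changed sign when 1 mouse was left out, and 11 did not. The counts of a list by direction also shifted with single mice, and some of these shifts are given below.

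**Figure D3:**
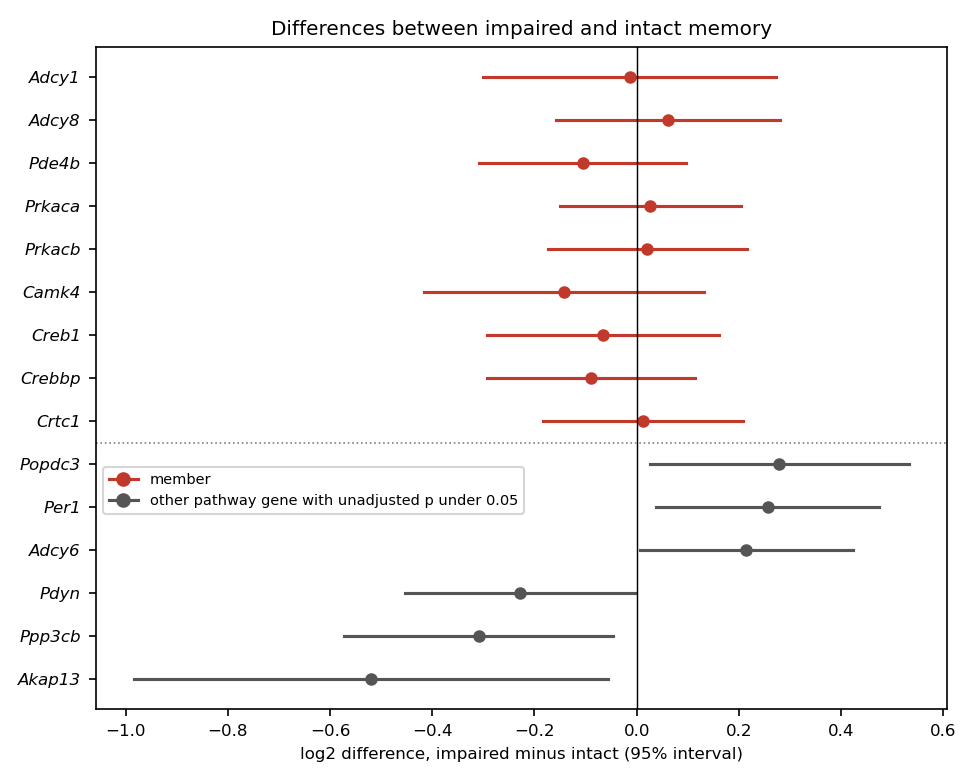
Log2 difference between impaired and intact mice, as point and 95% interval (limma, n = 4 each), for the 9 genes in red and for the other 6 pathway genes with an unadjusted p under 0.05 in grey, which were chosen for that p. The intervals of all 9 red genes include 0, and those of the grey genes lie to 1 side of 0 by choice.

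Among the enzymes that make cAMP, 6 of 8 adenylyl cyclases had higher and 2 lower values in impaired mice, with a median of 0.040. The split was 4 and 4 without intact mouse 2 (median 0.010), without intact mouse 4 (0.0048) and with the plexus score in the fit (-0.0004). Adcy6, a cyclase that calcium inhibits, stood at 8.33, 8.22, 8.16 and 8.22 in impaired mice 1 to 4, against 8.16, 8.11, 7.80 and 8.003 in intact mice 1 to 4. Only impaired mouse 3 and intact mouse 1 overlapped. The difference was 0.21 (standard error 0.094, unadjusted p = 0.0447, adjusted p = 0.961, limma), with a range of 0.14 to 0.29 over the other settings and the lowest value without intact mouse 3. Adcy4, the cyclase with the smallest p among the lower ones, differed by -0.071 (adjusted p = 0.975) at a mean of 5.43, within the background, and by -0.0037 without impaired mouse 3. Of 7 G protein alpha subunits, 2 were higher and 5 lower, with Gnai2, which inhibits cyclases, at 0.063 and the abundant neuronal Gnao1 at -0.11 (adjusted p = 0.961 for both). Gnao1 was at -0.030 without impaired mouse 1, and 4 of the 7 subunits were then higher and 3 lower. Of 11 receptors that stimulate cyclases through Gs, 5 were higher and 6 lower, with the melanocortin receptor Mc4r at 0.11 and the GLP-1 receptor Glp1r at -0.16 (adjusted p = 0.961 for both). Mc4r was at 0.032 without impaired mouse 2, and Glp1r at -0.043 without intact mouse 4. Without both mice 3, and with the arrays centred on their medians, 6 of the 11 receptors were higher and 5 lower.

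Phosphodiesterases of cAMP were lower in 9 and higher in 6 of 15 genes, with a median of -0.042. That direction rested on intact mouse 3, without which 6 were lower and 9 higher (median 0.0059). Without both mice 3, 7 were lower and 8 higher (0.0019), as with the thalamus score in the fit (0.0087). Pde1c, which calcium and calmodulin activate, differed by -0.24 (standard error 0.12, limma, adjusted p = 0.961) and Pde4a by 0.064 (adjusted p = 0.973). Pde4a differed by 0.0086 without impaired mouse 1. Of 9 PKA subunits and inhibitors, 6 were higher and 3 lower, with a median of 0.021. The count was turned, to 3 higher and 6 lower, without impaired mouse 2 (median -0.023) and with both tissue scores in the fit (-0.016). The type II regulatory subunits had the smallest p in opposite directions, with Prkar2b at 0.15 and Prkar2a at -0.15 (standard errors 0.11 and 0.13, adjusted p = 0.961 for both). Prkar2b was at 0.072 without intact mouse 2, and Prkar2a at -0.087 without impaired mouse 3. A-kinase anchoring proteins, which hold PKA at its sites in the cell, were higher in 5 and lower in 6 of 11 genes. Without impaired mouse 3 they were higher in 2 and lower in 9, and without both mice 3 higher in 1 and lower in 10 (median -0.071 against -0.039 with all mice). Without impaired mouse 1, as without intact mouse 1, 3 were higher and 8 lower. Akap13 had the largest difference of the 121 genes, at 5.67, 5.47, 5.01 and 5.96 in impaired mice 1 to 4, against 6.44, 5.83, 6.24 and 5.69 in intact mice 1 to 4. The difference was -0.52 (standard error 0.21, unadjusted p = 0.03135, adjusted p = 0.961, limma), and it ran from -0.66 to -0.12 over the other settings. Its mean of 5.79 is below the 75th percentile of the negative controls, a range in which signal and background are not told apart. Akap12 differed by 0.073 and was 8.10 in impaired mouse 3, the highest of the 8 values, without which the difference was -0.087. Akap6, whose groups did not overlap, differed by -0.093 with an unadjusted p of 0.220.

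Among effectors other than PKA, 5 of 6 genes were higher, and 3 of 6 with both tissue scores in the fit. Without impaired mouse 2, as without intact mouse 1, 4 of 6 were higher, and without impaired mouse 3, 6 of 6. Popdc3, a membrane protein of the Popeye family that binds cAMP, stood at 7.74, 7.52, 7.42 and 7.504 in impaired mice 1 to 4, against 7.26, 7.46, 7.37 and 6.98 in intact mice 1 to 4. Impaired mouse 3 lay below intact mouse 2, and the others did not overlap. The difference was 0.28 (standard error 0.11, unadjusted p = 0.0339, adjusted p = 0.961, limma), and 0.18 without intact mouse 4. Bves, of the same family, differed by -0.018 (adjusted p = 0.995). Of 13 genes of calmodulin, calmodulin-dependent kinases and MAPK-linked kinases, 10 were lower and 3 higher, with a median of -0.048. The 10 include the calmodulin genes Calm2 and Calm3, at -0.070 and -0.055 (at -0.059 and -0.0050 without impaired mouse 1). Without intact mouse 3, as with the thalamus score in the fit, 8 were lower and 5 higher. Camk4 had the smallest p among the lower genes, and Camk1g the smallest among the higher ones, at 0.10 (standard error 0.11, adjusted p = 0.961) and at 0.018 without impaired mouse 1.

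All 8 phosphatases and phosphatase inhibitors of the list had lower values in impaired mice (7 of 8 after a further quantile normalization), with a median of -0.17, beside 52.9% of all genes with lower values. Ppp3cb, a catalytic subunit of calcineurin, stood at 11.18, 11.40, 11.08 and 11.60 in impaired mice 1 to 4, against 11.75, 11.57, 11.69 and 11.49 in intact mice 1 to 4. Impaired mouse 4 lay inside the intact range, and the other 3 impaired mice lay below it. The difference was -0.31 (standard error 0.12, unadjusted p = 0.0257, adjusted p = 0.961, limma), and -0.18 with both tissue scores in the fit. The other catalytic subunit measured, Ppp3ca, differed by only -0.017, and the protein phosphatase 1 subunits Ppp1cc and Ppp1cb by -0.24 and -0.18. Ppp3ca was at 0.027 and Ppp1cb at -0.080 without impaired mouse 1. Ppp1r1b, which is also among the striatum markers, differed by -0.21. It was 8.97 and 8.56 in intact mice 2 and 4, and 8.11 to 8.33 in the rest. The 8 genes share RNA samples and are not replicates, and no member passed. Without impaired mouse 3, and with both tissue scores in the fit, 6 of 8 were lower. With either score alone, without both mice 3, and without any 1 of the 4 intact mice or impaired mouse 1, 7 of 8 were lower. The median was -0.090 without impaired mouse 1 and -0.11 without intact mouse 2.

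**Figure D4:**
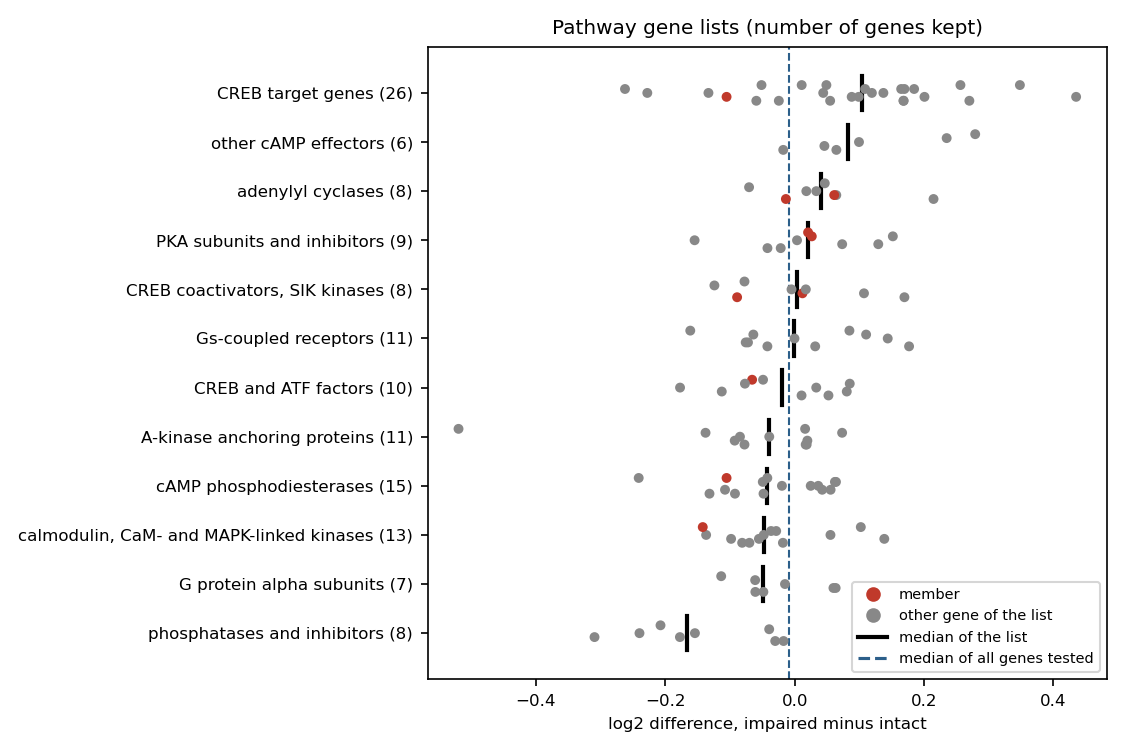
Log2 differences between impaired and intact mice for each gene of 12 pathway lists, with the number of genes kept in brackets; red points are the 9 genes, bars are list medians and the dashed line is the median of all genes tested (-0.0083). The phosphatase list lies wholly below 0 (7 of 8 genes after a further quantile normalization and 6 of 8 without impaired mouse 3). The CREB targets have the highest median, 0.10 (-0.0014 without impaired mouse 1 and 0.19 without both mice 3).

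Factors of the CREB and ATF families were higher in 5 and lower in 5 of 10 genes, with Atf2 at -0.11 and Atf4 at 0.085 (limma, adjusted p = 0.961 and 0.964). Atf2 was at -0.043 without impaired mouse 3, and Atf4 at 0.17 without intact mouse 4. Without impaired mouse 4, 3 of the factors were higher and 7 lower. Of 8 CREB coactivators and SIK kinases, which hold CRTC proteins in the cytoplasm, 4 were higher and 4 lower. Without impaired mouse 4, 3 of the 8 were higher and 5 lower, and without impaired mouse 2, 5 were higher and 3 lower. Crtc3 differed by -0.12 and Sik1 by 0.17 (standard errors 0.095 and 0.11, limma, adjusted p = 0.961 for both). Sik1 was 7.82 in impaired mouse 1 and 7.61 in impaired mouse 4, above the other 6 mice at 7.32 to 7.44. Without impaired mouse 1 the difference of Sik1 was 0.078 and that of Crtc3 -0.051.

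CREB binds the cAMP response element (CRE), an 8-base palindrome, TGACGTCA, of which the 5-base core TGACG or its complement CGTCA can also serve as a weaker site. Promoters of 300 bases, 250 before to 50 after each annotated gene start, were searched on both strands in the RefSeq sequences of build GRCm38.p6. The whole palindrome, which contains the core on both strands, was present in 588 of 32851 promoters, or 1.79%, and the core in 20.8%. Of the 10 genes, 8 had at least 1 promoter in that set, 14 promoters in all, of which 0 held the palindrome and 3 held the core. Beside 1.79% and 20.8% of all promoters, neither count sets these genes apart. A match is a run of letters and no evidence of binding, and its absence from these windows says nothing of sites elsewhere. The core matches of the PKA genes and of Pde4b are shown to give the place of the letters. Each is printed as 60 bases in the direction of transcription, with the core in capitals.
Prkaca, chr8:83972832-83972891, plus strand: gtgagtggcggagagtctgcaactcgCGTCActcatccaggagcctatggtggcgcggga
Prkaca, chr8:83972946-83973005, plus strand: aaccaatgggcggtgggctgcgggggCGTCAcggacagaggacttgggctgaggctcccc
Prkacb, chr3:146813015-146813074, minus strand: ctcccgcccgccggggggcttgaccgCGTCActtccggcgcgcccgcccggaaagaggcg
Pde4b, chr4:102421495-102421554, plus strand: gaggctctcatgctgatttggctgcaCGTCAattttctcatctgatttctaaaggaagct

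The core began 120 and 6 bases before the start of Prkaca, 102 bases before that of Prkacb and 34 bases before that of Pde4b. Among 28 genes listed as CREB targets, 19 had a promoter in the set, and 4 of these held the palindrome: Btg2, Dusp1, Scg2 and Sst. They are shown because they carry the complete element beside a measured level, with the element in capitals.
Btg2, chr1:134079288-134079347, minus strand: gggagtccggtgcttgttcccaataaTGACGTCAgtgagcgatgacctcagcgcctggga
Dusp1, chr17:26508582-26508641, minus strand: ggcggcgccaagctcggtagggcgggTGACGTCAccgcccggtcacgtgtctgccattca
Scg2, chr1:79440061-79440120, minus strand: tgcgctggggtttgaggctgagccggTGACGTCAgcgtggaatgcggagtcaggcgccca
Sst, chr16:23890859-23890918, minus strand: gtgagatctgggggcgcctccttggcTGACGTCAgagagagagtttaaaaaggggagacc

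The element began 166 bases before the start of Btg2, 143 before that of Dusp1, 68 before that of Scg2 and 48 before that of Sst. These genes did not move as a group. Dusp1, a phosphatase of MAP kinases, averaged 9.93 ± 0.38 in impaired mice and 9.59 ± 0.22 in intact mice (SD, n = 4 each), a difference of 0.35 that did not pass (limma, adjusted p = 0.961). Btg2, an antiproliferative early response gene, differed by 0.14, Scg2, which encodes secretogranin II, by -0.13, and Sst, which encodes somatostatin and whose promoter is a classic example of the element, by -0.051. Their adjusted p ran from 0.961 to 0.990. Without impaired mouse 1 Dusp1 differed by 0.19 and Btg2 by 0.019, without intact mouse 4 Scg2 differed by -0.064, and without impaired mouse 3 Sst differed by 0.037.

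Over all genes tested, 374 had a promoter with the palindrome and 11399 had promoters without it. Of the 374, 0 passed an adjusted p of 0.05, and 6 higher and 7 lower genes had an unadjusted p under 0.05, or 1.6% and 1.87%. Over all genes tested these shares were 2.17% and 2.52%, and over the 11399 genes without the palindrome 2.18% and 2.66%. The median difference was -0.014 with the palindrome and -0.0086 without it. Those with the smallest p were Slx4ip, Mitf, Ccnl1 and Cdc14b, with differences of -0.51, -0.32, -0.30 and -0.32, and Trmt5 and Zfand2b, with 0.25 and 0.23 (limma, adjusted p = 0.961 for each). Mitf is a transcription factor known in melanocytes as a target of CREB, and Ccnl1 encodes a cyclin linked to splicing. Slx4ip, at a mean of 6.15, lay below the 75th percentile of the negative controls.

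Of the 26 CREB targets tested, 19 had higher and 7 lower values in impaired mice, with a median of 0.10 against -0.0083 over all genes. Many of them are also activity-induced early genes, a set that earlier results of these data showed to be high in impaired mouse 1, so that the direction of the list is not independent evidence. Without impaired mouse 1, 13 were higher and 13 lower, with a median of -0.0014. Without both mice 3, 22 were higher and 4 lower (median 0.19), as with both tissue scores in the fit (0.20). With the thalamus score alone, 21 were higher and 5 lower (0.16), as after a further quantile normalization (0.11). Per1, a clock gene that both CREB and glucocorticoids induce, stood at 9.27, 8.99, 9.03 and 9.16 in impaired mice 1 to 4, against 8.65, 8.92, 8.90 and 8.97 in intact mice 1 to 4. Every impaired value lay above every intact one, with impaired mouse 2 and intact mouse 4 close to each other. The difference was 0.26 (standard error 0.099, unadjusted p = 0.0256, adjusted p = 0.961, limma), and it ran from 0.19 to 0.30 over the other settings. Pdyn, which encodes prodynorphin, went the other way. It stood at 7.23, 7.14, 7.21 and 7.01 in impaired mice 1 to 4, against 7.32, 7.63, 7.21 and 7.33 in intact mice 1 to 4, and only impaired mouse 1 and intact mouse 3 overlapped. The difference was -0.23 (standard error 0.10, unadjusted p = 0.0481, adjusted p = 0.961, limma), and -0.14 without intact mouse 2. Bdnf and Arc, which neuronal activity induces through CREB among other factors, differed by 0.20 and 0.27 with adjusted p of 0.961 for both, and by 0.093 and 0.11 without impaired mouse 1.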

How the data were processed

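The authors' deposited log2 values were made with RMA, per the submitters' processing notes: a method of background correction, quantile normalization and summary over probes. Software version, genome build and scan dates were not stated in the labels used here. Per the labels' protocols, the arrays were made from 1 ng of RNA with the WT Pico kit. RMA compresses differences of dim genes, and amplification from so little RNA adds noise that cannot be told apart from differences between mice.

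The arrays carried 29129 probe sets, 22206 targets and 5222 negative controls. Of the targets, 19572 carried a single gene symbol in the platform annotation, 0 carried more than 1, and 2634 were unnamed. All 19572 matched RefSeq (GRCm38.p6) by Entrez identifier. The brightest probe set was used for 55 genes with several. The 25% of 19505 genes with the lowest mean were left out, at a floor of 5.33. Identical arrays were looked for, and 0 pairs found.

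The groups were compared with lmFit and eBayes of limma 3.58.1 (R 4.3.3), two-sided, impaired minus intact, with Benjamini-Hochberg adjustment over 14628 genes and a threshold of 0.05. The procedure was tested on simulated data. Correlations over mice used exact permutation tests, adjusted over 36 pairs of genes and over 45 pairs of a gene and a marker score. Alternatives were other filters, priors, normalizations, array weights, the replicate number as a block, tissue scores as covariates and leaving out mice. The labels call the mice biological replicates, and their number limits the precision.

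The genes and lists were chosen with earlier results of these data known. Named were the 10 genes, the gene of smallest p in each direction and any with an unadjusted p under 0.05 in each pathway list, the 2 genes most like each of the 10, the CREB targets with a complete CRE and the 6 genes of smallest p with one. Akap6, Calm2, Calm3, Ppp3ca, Ppp1cc, Ppp1cb, Ppp1r1b, Bdnf and Arc were named after their values were seen.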

Additional observations from a re-analysis of the deposited data

Results flagged for a closer look

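In groups of 4 mice, a value counted as standing apart when its gap to the nearest of the other 3, as a share of the group's range, exceeded Dixon's 95% critical value, which chance gives in about 1 of 20 groups. Of 82 groups, 2 for each of 41 named genes, 6 held such a value. Among the 9 cAMP, PKA and CREB genes it was Crebbp in intact mouse 2, at 10.769 against 10.955 to 10.962 in the other intact mice. Atf4 was 9.742 in impaired mouse 1, against 10.007 to 10.039 in the other impaired mice, and 10.118 in intact mouse 4, against 9.768 to 9.789 in the other intact mice. Prkar2b was 8.098 in intact mouse 2, against 8.404 to 8.446 in the other intact mice. Scg2 was 10.427 in impaired mouse 3, against 10.452 to 10.455 in the other impaired mice, a gap that is small in size. Slx4ip was 6.576 in intact mouse 4, against 6.322 to 6.364 in the other intact mice.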

How the results depend on the processing

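Under 20 other settings the 9 genes gave 0 calls in each, and the 121 other pathway genes 0 calls in each. Over all genes, the intensity trend with a robust prior gave 1 call where the others gave 0. The median difference of the 9 genes, -0.014, was -0.080 once the plexus score entered the fit, a shift larger than the SD of 0.0475 between mice. Without 1 mouse it ran from -0.0550 to 0.0075.

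Camk4, Crebbp and Pde4b kept a negative difference in every setting, and 28 of the 32 other named genes kept their direction in every setting that gave a value. The rest changed sign in some, always without a call. After a further quantile normalization Adcy1 was 0.0040 and Sst 0.014. With array weights Bves was 0.020. With the plexus score Crtc1 was -0.023, and with the thalamus score Adcy1, Bves and Prkacb were 0.037, 0.043 and -0.019. With both scores Adcy4, Adcy8, Akap12, Bves, Creb1, Prkaca, Prkacb and Sst were 0.050, -0.035, -0.12, 0.045, 0.019, -0.016, -0.0022 and 0.061. Without both mice 3, Adcy4, Adcy8, Akap12, Bves and Sst were 0.041, -0.020, -0.096, 0.14 and 0.074. With 1 mouse left out, the range was -0.1183 to 0.0857 for Adcy1, -0.0867 to 0.1948 for Akap12, -0.0816 to 0.0683 for Bves, -0.0291 to 0.0730 for Crtc1, -0.0231 to 0.0624 for Prkaca, -0.0301 to 0.0517 for Prkacb and -0.1025 to 0.0369 for Sst. For these near-zero differences the cause was not tested.

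The labels do not say whether the replicate number pairs the mice. Deviations of same-numbered mice of the groups correlated at 0.028, 0.033, -0.048 and -0.102. Those of differently numbered mice correlated at -0.134 to 0.120. Whether same-numbered mice shared a batch cannot be told from these values. With the replicate number as a block 0 genes passed, and Camk4 had the smallest p of the 9 genes, 0.343 (limma). With the brighter 50% of genes, Adcy4, Akap13, Btg2, Bves, Mc4r, Mitf, Pde1c and Slx4ip had no value.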
